A study of Mus musculus with 8 samples.

Results

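Broad peaks of HA-tagged H3.3K36M were examined as a class of chromatin region in the mouse cell line C3H10T1/2. They were chosen by the H3.3K36M signal that the authors' peak calls rest on and by length, as peaks of at least 10 kb in the deposited H3.3K36M list on chromosomes 1 to 19 and X. Of the 8375 peaks in the list, 569 met this rule, which is 6.79% of the peaks. Together they covered 11.6 Mb of the 31.7 Mb under all H3.3K36M peaks, or 36.7% of the covered length.

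C3H10T1/2 cells are mesenchymal progenitors from C3H mouse embryos. The compared lines stably expressed 1 FLAG-HA-tagged histone each, which was H3.3K36M, H3.3WT, H3.1K36M or H3.1WT, and no other treatment is named. K36M is a lysine-to-methionine change in the histone tail, and WT is the unchanged protein. Chromatin was fixed, sonicated and precipitated with an HA antibody (ChIP-seq), so tagged histone is read and the untagged histone of the cells is not. The labels name neither the promoter that drives the tagged gene nor whether a line is 1 clone, and no expression was measured, so the cell type was not checked against markers.

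Each line gave 1 HA library and 1 input, 8 samples in all, and the inputs were not used here. The HA libraries held 38783917 reads (H3.3K36M), 46749609 (H3.3WT), 41705735 (H3.1K36M) and 35487141 (H3.1WT). Signal is given as RPM, a read count scaled to the total of the library, per 10 kb bin of the mouse genome build mm9. With 1 library per line no difference has a replicate check, and the 95% intervals given with folds are exact (Clopper-Pearson) and cover counting error only. Reads counted without molecular identifiers can be copies of 1 molecule, which these intervals leave out. The peaks were called in the H3.3K36M line, so every value of that library inside them describes how they were chosen. The libraries of H3.3WT, H3.1K36M and H3.1WT are not named by the rule.

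Histone H3.1 is supplied mainly during DNA replication, by the chaperone CAF-1. H3.3 is also deposited outside replication, by the HIRA complex at active genes and regulatory elements and by DAXX with ATRX at repeats. H3.3 is known at promoters and enhancers and over the bodies of highly transcribed genes. The K36M mutation is known from chondroblastoma, and the mutant histone inhibits enzymes that methylate lysine 36.

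Most broad peaks, 390 of 569, were under 20 kb long. The median length was 15.6 kb, with quartiles at 12 and 22.8 kb, against a median of 1.8 kb for the 7806 shorter peaks. There were 141 peaks of 10 to under 12 kb, 119 of 12 to under 15 kb and 130 of 15 to under 20 kb, while 67 measured 30 to under 50 kb and 25 measured 50 kb or more. The 57 longest, of at least 37.8 kb, held 26.6% of the length under broad peaks. At the threshold itself the list held 17 peaks of exactly 10 kb and 19 of 9.8 kb. Peaks of 10 kb had median signals of 13.03 RPM (H3.3K36M), 10.9 RPM (H3.3WT), 3.796 RPM (H3.1K36M) and 3.98 RPM (H3.1WT), and those of 9.8 kb had 13.8, 11.3, 4.86 and 5.38 RPM in these libraries. These values average every bin that a peak touches, including bins mostly outside it. They therefore lie below values from bins at least 50% inside, which are used in the rest of the text. Measured this way, the peaks just inside the threshold had no higher signal than those just outside.

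**Figure D1:**
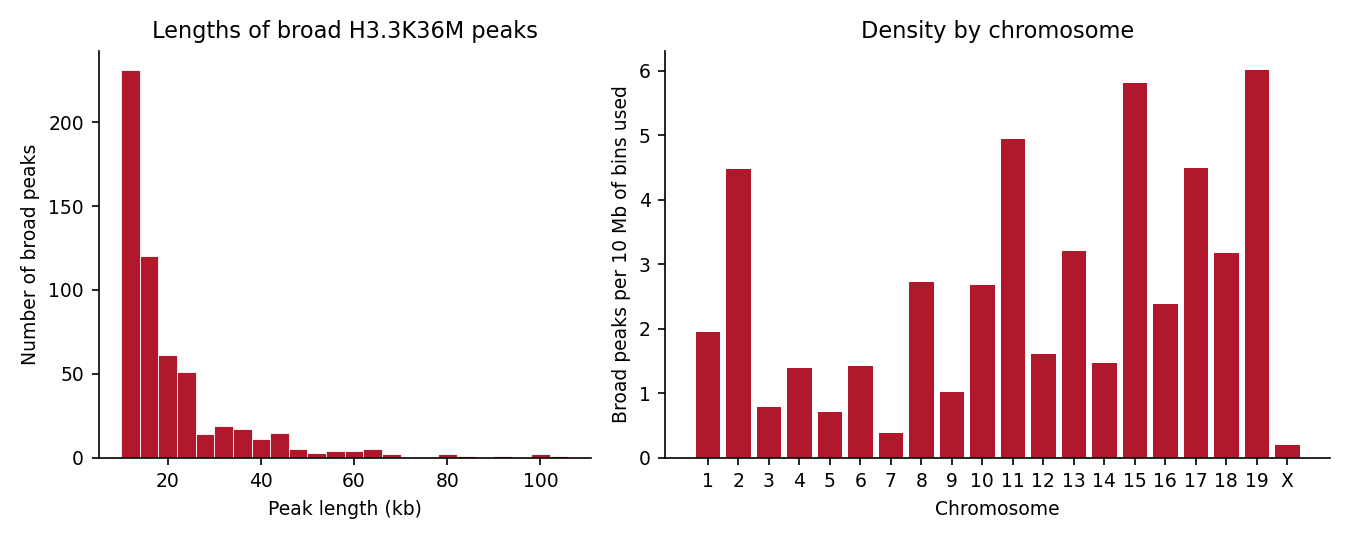
Left, number of broad H3.3K36M peaks by length in classes of 4 kb, where the median is 15.6 kb and the longest reaches 102 kb. Right, broad peaks per 10 Mb of bins used on each chromosome, from 0.202 on chromosome X to 6.01 on chromosome 19.

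Broad peaks were unevenly spread over the chromosomes. Chromosome 19 carried 6.01 per 10 Mb of bins used, chromosome 15 carried 5.80 and chromosome 11 carried 4.95. Chromosome 2, with 77, had the most in number (4.48 per 10 Mb). Chromosome X had 3 (0.202 per 10 Mb), chromosome 7 had 5 (0.380) and chromosome 5 had 10 (0.706). The order was not that of peak number alone. Broad peaks were 11.3% of all H3.3K36M peaks on chromosome 15 and 11.3% on chromosome 11, but 1.70% on chromosome 7 and 1.91% on chromosome X. On chromosome 15 they covered 1.24% of the bins used, on chromosome 19 they covered 1.18%, and on chromosome X 0.0367%.

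Along the chromosomes some broad peaks came in groups, while most stood alone. The median distance between neighbouring broad peaks was 1048 kb, and 128 of the 549 gaps were longer than 5 Mb. At the other end, 138 gaps (25.1%) were under 100 kb and 48 were under 10 kb. The shortest was 2.2 kb, which was also the shortest between any H3.3K36M peaks, on a grid of 200 bp. Joining broad peaks under 100 kb apart gave 90 clusters with 228 of the peaks (40.1%), and 341 stood alone. A shorter H3.3K36M peak lay within 50 kb of 390 broad peaks (68.5%). The nearest peak of any length was a median of 12 kb away from a broad peak, against 35.8 kb from a shorter one, and lay within 10 kb of 44.5% of broad peaks and 22.9% of shorter ones.

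The 3 richest clusters held 5 broad peaks each. On chromosome 4, chr4:88543801-88830600 was broad-peak signal for 94.2% of its 286.8 kb, split by short gaps into pieces of 64.6, 38.4, 102, 20 and 45.2 kb. Bins in these pieces averaged 17.9 RPM (H3.3K36M), 14.2 RPM (H3.3WT), 5.41 RPM (H3.1K36M) and 7.05 RPM (H3.1WT). The H3.3 libraries were thus well above the H3.1 libraries, and H3.1K36M was below H3.1WT in each of the 5 pieces. The cluster chr1:33836001-34131800 was covered for 47.8% of 295.8 kb and had 5 shorter peaks between the broad ones. Its bins were among the strongest of the class, at 25.5 RPM (H3.3K36M) and 23.03 RPM (H3.3WT), and here H3.1 was high as well, at 10.2 RPM (H3.1K36M) and 10.5 RPM (H3.1WT). The third, chr2:27623601-27795600, was covered for 48.6% of 172 kb, with 15.7 RPM (H3.3K36M), 13.7 RPM (H3.3WT), 6.50 RPM (H3.1K36M) and 6.83 RPM (H3.1WT). The most isolated broad peaks were chrX:18734401-18754200, with 111377 kb to the next one on its chromosome, and chr7:29708601-29723200, with 58253.6 kb. The first held 17.3 RPM (H3.3K36M), 11.1 RPM (H3.3WT), 1.39 RPM (H3.1K36M) and 2.70 RPM (H3.1WT), and the second 18.1 RPM (H3.3K36M), 15.3 RPM (H3.3WT), 1.74 RPM (H3.1K36M) and 1.67 RPM (H3.1WT). Both were rich in H3.3 and below the median of all bins in H3.1.

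Of the 245206 bins used, 1131 (0.461%) lay at least 50% inside a broad peak. They belonged to 559 of the 569 peaks, and 246 of these had a single bin. The other 10 peaks fell on rows of the table that are wider than 10 kb. Each broad-peak bin rested on many reads, with a median of 649 reads in H3.3K36M, 654 in H3.3WT, 165 in H3.1K36M and 153 in H3.1WT.

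Broad peaks called in the H3.3K36M line were also among the regions richest in H3.3WT. In H3.3K36M, whose signal chose them, broad-peak bins ranged from 9.40 to 41.0 RPM with a median of 16.8 RPM, against a median of 3.004 RPM over all bins. In H3.3WT they ranged from 2.17 to 30.4 RPM with a median of 14.1 RPM, against 2.77 RPM over all bins. H3.1K36M ranged from 0.868 to 16.3 RPM with a median of 3.98 RPM, against 3.64 RPM over all bins, and H3.1WT from 1.22 to 15.1 RPM with a median of 4.33 RPM, against 3.65 RPM. The medians thus stood at 5.59-fold that of all bins in H3.3K36M, 5.07-fold in H3.3WT, 1.09-fold in H3.1K36M and 1.19-fold in H3.1WT.

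**Figure D2:**
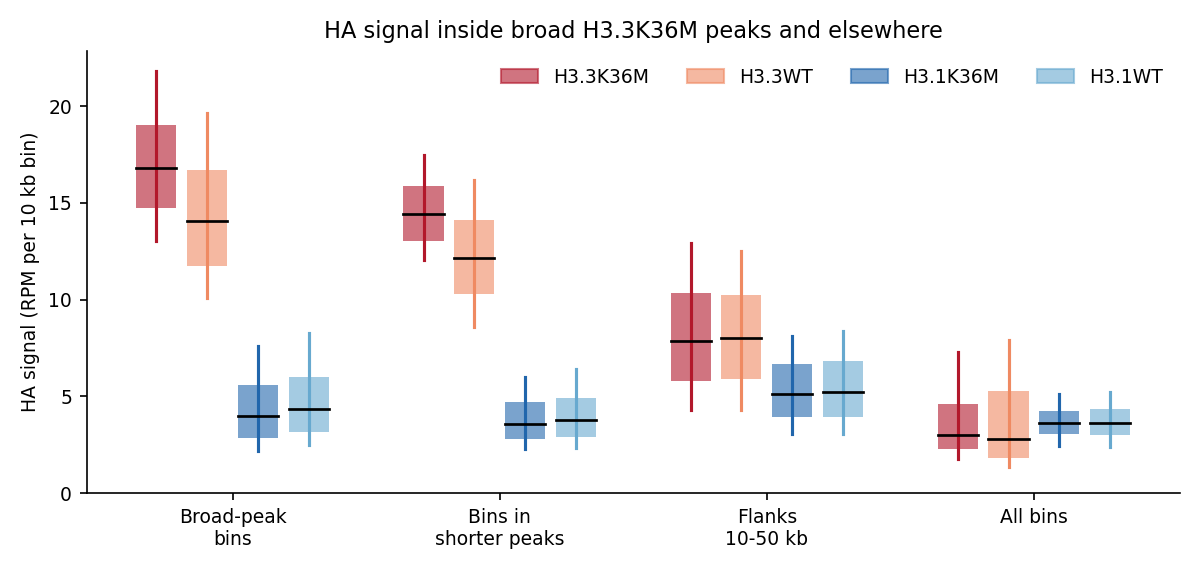
HA signal in RPM per 10 kb bin for H3.3K36M, H3.3WT, H3.1K36M and H3.1WT in broad-peak bins, bins at least 50% inside a shorter H3.3K36M peak, flanks 10 to 50 kb from a broad peak and all bins. Black lines are medians, boxes run between the quartiles and vertical lines between the 10th and 90th percentiles of bins; the H3.3 medians of broad-peak bins are 16.8 and 14.1 RPM and the H3.1 medians 3.98 and 4.33 RPM.

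Of the 1131 broad-peak bins, 1121 (99.1%) were at least 2-fold above the H3.3WT median of all bins, a level that 23.1% of all bins reached. In H3.1K36M 134 (11.8%) were at least 2-fold above that library's median, against 1.6% of all bins, and in H3.1WT 166 (14.7%), against 1.84%. The top 1% of H3.3WT bins began at 13.5 RPM and took in 638 broad-peak bins (56.4%), where 1.01% of all bins belong to it. Broad peaks therefore held 25.9% of the 2467 highest H3.3WT bins, and 48.9% of these bins touched no H3.3K36M peak at all. The latter share was larger among all bins, where 99.3% lay outside broad peaks. Of those, at most 21.9% in any distance class (0 to 10 kb) touched a shorter peak. In H3.3K36M all 1131 broad-peak bins passed the 2-fold level (15.4% of all bins did) and 931 lay in its top 1% (1.01% of bins), values that follow from the choice. Taken as a share of the library, broad-peak bins held 1.94% of H3.3K36M reads, 1.63% of H3.3WT reads, 0.506% of H3.1K36M reads and 0.547% of H3.1WT reads.

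Signal varied little with length. From peaks of 10 to under 12 kb to those of 50 kb or more, the median over bins was between 15.9 and 17.7 RPM in H3.3K36M and between 13.03 and 14.8 RPM in H3.3WT, lowest in the shortest class. In the H3.1 libraries it lay between 3.28 and 4.87 RPM (H3.1K36M) and between 3.64 and 5.24 RPM (H3.1WT), without a steady order. Across 559 peaks, Pearson's r between log2 signal and log2 length was 0.235 for H3.3K36M, 0.187 for H3.3WT, 0.185 for H3.1K36M and 0.231 for H3.1WT. These points share libraries, and 246 of them rest on 1 bin. Bins need lie only 50% inside a peak, so those of short peaks are more often partly uncovered. Length was not separated from coverage here.

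The longest broad peaks were alike in H3.3 and differed widely in H3.1. The longest, chr4:88652201-88754200 (102 kb), averaged 17.7 RPM (H3.3K36M), 14.3 RPM (H3.3WT), 6.93 RPM (H3.1K36M) and 8.36 RPM (H3.1WT) over its 9 bins. The next, chr11:117784001-117883600 (99.6 kb), averaged 19.8 RPM (H3.3K36M), 17.9 RPM (H3.3WT), 8.35 RPM (H3.1K36M) and 7.73 RPM (H3.1WT). Both were above the median H3.1 signal of all bins in both H3.1 libraries. By contrast chr15:77584601-77670400 (85.8 kb) averaged 18.5 RPM (H3.3K36M) and 17.9 RPM (H3.3WT) with 2.44 RPM (H3.1K36M) and 2.63 RPM (H3.1WT). Its bins reached 26.8 RPM in both H3.3 libraries. Likewise chr1:165169601-165237200 (67.6 kb) had 18.3 and 14.9 RPM in H3.3K36M and H3.3WT but 2.40 and 2.62 RPM in H3.1K36M and H3.1WT, and chr13:63329801-63428200 (98.4 kb) had 16.7 RPM (H3.3K36M), 12.6 RPM (H3.3WT), 3.16 RPM (H3.1K36M) and 3.04 RPM (H3.1WT). In these peaks H3.1 lay below the median of all bins.

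The other 5 of the 10 longest were chr11:118152001-118242200, chr2:125849601-125930800, chr1:134182601-134261600, chr15:66698401-66767200 and chr4:88543801-88608400. Their means ran from 16.5 to 20.3 RPM in H3.3K36M and from 14.7 to 18.5 RPM in H3.3WT. In H3.1K36M they ran from 3.09 to 7.02 RPM and in H3.1WT from 3.601 to 7.17 RPM. Over the 10 longest, H3.3WT exceeded H3.1WT by between 1.71-fold (95% interval 1.63 to 1.79), in chr4:88652201-88754200, and 6.81-fold (6.34 to 7.32), in chr15:77584601-77670400.

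The comparison of H3.3WT with H3.1WT asks how far these regions favour H3.3 in cells without the mutation, and neither library was named by the rule. Over broad-peak bins the mean was 14.5 RPM (H3.3WT) and 4.86 RPM (H3.1WT), a pooled 2.98-fold difference (2.97 to 2.999). The median log2 ratio, with 0.1 RPM added to both libraries, was 1.66, against -0.43 over all bins. H3.3WT was at least 2-fold higher in 919 of 1131 bins (81.3%), where 10.3% of all bins were, and at least 2-fold lower in 1 bin (16.8% of all bins). Per peak the fold was above 1 in 555 of 559, with a median of 3.38 and 10th and 90th percentiles of 1.89 and 6.03. By bins, H3.3WT was above H3.1WT in 99.0% of broad-peak bins, against 35.7% of all bins. In bins at least 50% inside a shorter peak this share was 99.7%, so it was not particular to broad peaks. Bins at least 50% inside a shorter peak had nearly the same median log2 ratio, 1.61, with 622 of 739 at least 2-fold higher.

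Peaks with the highest H3.3WT/H3.1WT ratio were short members of the class with little H3.1. At chr11:33048201-33061400 the values were 20.8 RPM (H3.3K36M), 21.3 RPM (H3.3WT), 1.54 RPM (H3.1K36M) and 1.58 RPM (H3.1WT), and H3.3WT exceeded H3.1WT by 13.4-fold (10.3 to 17.9). Next came chr5:93550401-93561400 at 11.1-fold (8.15 to 15.4), chr16:24488001-24499200 at 10.6-fold (8.33 to 13.8), chr10:23498801-23508800 at 9.502-fold (7.38 to 12.4) and chr16:23109601-23120800 at 9.21-fold (7.52 to 11.4). Each of these 5 was 10 to 13.2 kb long and rests on 1 bin. The same 5 held 15.4 to 25.4 RPM in H3.3K36M, where a high signal follows from the choice. The highest H3.3WT signals stood on chromosome 1, at chr1:34057801-34074200, with 31.03 RPM (H3.3K36M), 28.3 RPM (H3.3WT), 8.27 RPM (H3.1K36M) and 7.87 RPM (H3.1WT). Other pieces of that cluster, chr1:34083401-34131800 and chr1:33953401-33969400, were among the 5 highest with 24.9 and 24.5 RPM in H3.3WT. The remaining pair were chr16:23109601-23120800, at 26.6 RPM, and chr4:62156001-62185000, at 26.0 RPM.

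The H3.3K36M line gave the same order against H3.1K36M, as a description, since H3.3K36M chose the bins. Broad-peak bins averaged 17.2 RPM (H3.3K36M) and 4.50 RPM (H3.1K36M), and H3.3K36M exceeded H3.1K36M at least 2-fold in 1022 of 1131 bins, against 8.18% of all bins. It was at least 2-fold lower in 0 of them, against 3.29% of all bins. Across 559 peaks, the log2 signals of H3.3K36M and H3.3WT had r of 0.447 and those of H3.1K36M and H3.1WT 0.900, whereas H3.3K36M with H3.1K36M had -0.02 and H3.3WT with H3.1WT 0.203. The peaks share these libraries, and the choice by H3.3K36M limits the range of that library.

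Broad peaks sat in wider neighbourhoods of raised H3.3. In flanks 10 to 50 kb from the nearest broad peak the mean was 8.31 RPM (H3.3K36M) and 8.28 RPM (H3.3WT). Inside, the mean was 2.07-fold (2.07 to 2.08) the flank mean in H3.3K36M and 1.75-fold (1.75 to 1.76) in H3.3WT. The median of bins stayed above the H3.3WT library's median by 3.12-fold at 10 to 20 kb, 2.39-fold at 50 to 100 kb, 2.01-fold at 100 to 200 kb and 1.61-fold at 200 to 500 kb, and came to 1.02-fold at 1000 to 2000 kb. The same distances gave 2.89, 2.08, 1.69, 1.34 and 1.00 in H3.3K36M, so that, relative to each library's own median, H3.3K36M was higher than H3.3WT inside the peaks and lower at these distances. With every bin that touches any H3.3K36M peak left out, the H3.3WT values at 10 to 20 kb and 100 to 200 kb were still 2.99-fold and 1.91-fold.

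**Figure D3:**
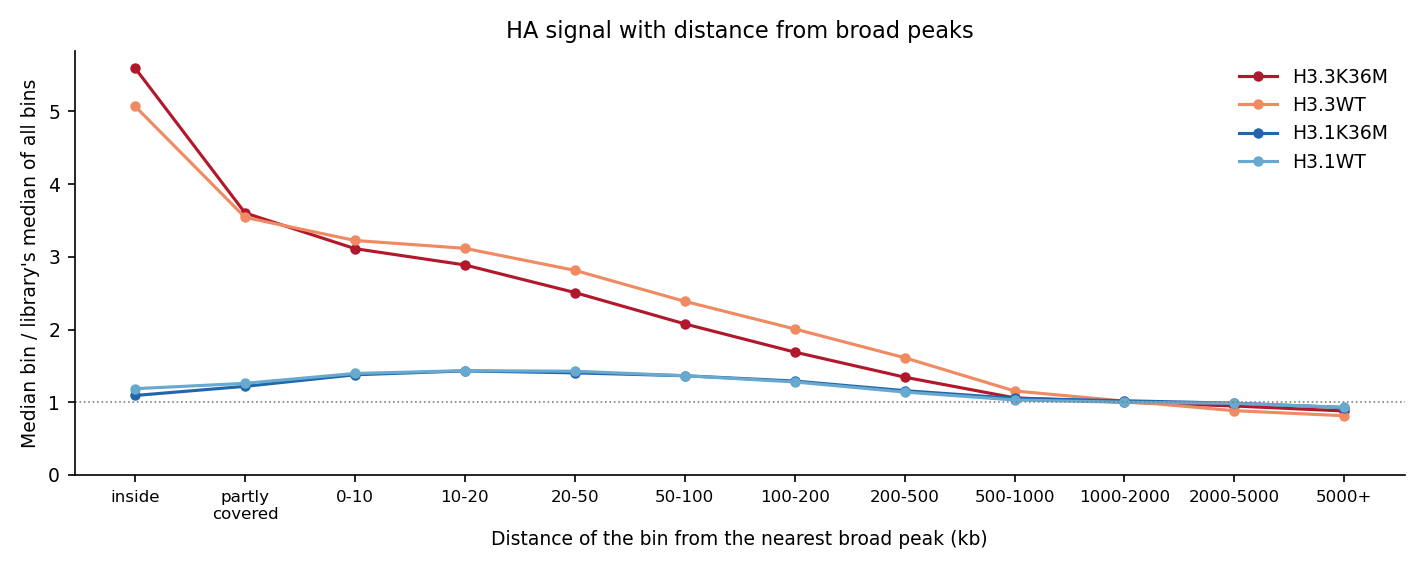
Median HA signal of bins, divided by the library's median of all bins, by distance from the nearest broad peak in kb (inside means at least 50% covered, partly covered means under 50%). H3.3K36M and H3.3WT start at 5.59 and 5.07 and decline to about 1 by 1000 to 2000 kb, while H3.1K36M and H3.1WT are lower inside (1.09 and 1.19) than at 10 to 20 kb (1.43 and 1.43).

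H3.1 had the opposite profile near the peaks. Its signal was raised around broad peaks, with medians at 10 to 20 kb of 5.21 RPM (H3.1K36M) and 5.24 RPM (H3.1WT), which is 1.43-fold the median of all bins in either library. Inside the peaks it was lower than in these flanks. Mean signal inside was 0.824-fold (0.820 to 0.828) the flank mean in H3.1K36M and 0.873-fold (0.869 to 0.878) in H3.1WT. Taken peak by peak, against the bins within 10 to 50 kb of the same peak, H3.1K36M was lower inside in 473 of 543 peaks and H3.1WT in 452 of 543, with median ratios of 0.732 and 0.765. H3.3WT was higher inside than in its own flank in 530 of 543 peaks, with a median ratio of 1.63. Against flanks 50 to 200 kb away the ratio of means was 0.908 in H3.1K36M and 0.977 in H3.1WT, so the difference was smaller against more distant bins. Bins in shorter peaks behaved likewise: relative to their own surroundings without peaks, their median ratio was 0.781 in H3.1K36M and 0.789 in H3.1WT, against 0.722 and 0.759 for broad-peak bins measured that way. H3.1K36M was lower than these surroundings in 86.8% of them and H3.1WT in 85.6%, against 84.7% and 81.5% of broad-peak bins. H3.3WT was higher in 98.0%, against 95.7% of broad-peak bins. Such shares were not computed for bins outside peaks, so the counts have no background share.

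Within a broad peak the middle and the ends differed modestly. In the 33 peaks with at least 5 bins, inner bins averaged 19.2 RPM and outer bins 15.9 RPM in H3.3K36M, and 15.8 and 13.6 RPM in H3.3WT, with inner bins higher in 31 of 33 peaks in H3.3WT. H3.1 ran the other way, with 4.99 RPM in inner and 5.75 RPM in outer bins of H3.1K36M and 5.39 and 6.05 RPM in H3.1WT. Outer bins are only partly covered by the peak, and with wholly covered bins alone (16 peaks) the inner mean was 1.07-fold the outer mean in both H3.3K36M and H3.3WT, higher in 12 and 9 of 16 peaks. Inner bins stayed lower in 13 of these 16 peaks in H3.1K36M and in 13 in H3.1WT. The bins of 1 peak varied more than counting error: over the 33 long peaks the median coefficient of variation was 19.7% in H3.3K36M and 20.02% in H3.3WT, where counting alone gives 3.8% in either.

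Set against H3.3WT, H3.3K36M was moderately higher in most broad peaks, which is described here without a test because the peaks were called in that library. Over broad-peak bins the means were 17.2 RPM (H3.3K36M) and 14.5 RPM (H3.3WT), a pooled 1.19-fold difference (1.18 to 1.19), and the median log2 ratio was 0.26, against 0.10 over all bins and -0.02 in the flanks. H3.3K36M was higher in 475 of 559 peaks and lower in 84. By bins, it was higher in 81.2% of broad-peak bins, against 58.4% of all bins. Bins at least 2-fold apart were rare: 21 of 1131 (1.86%) were higher, where 2.94% of all bins were, and 0 were lower, where 1.81% of all bins were. Shorter peaks gave a median log2 ratio of 0.24.

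**Figure D4:**
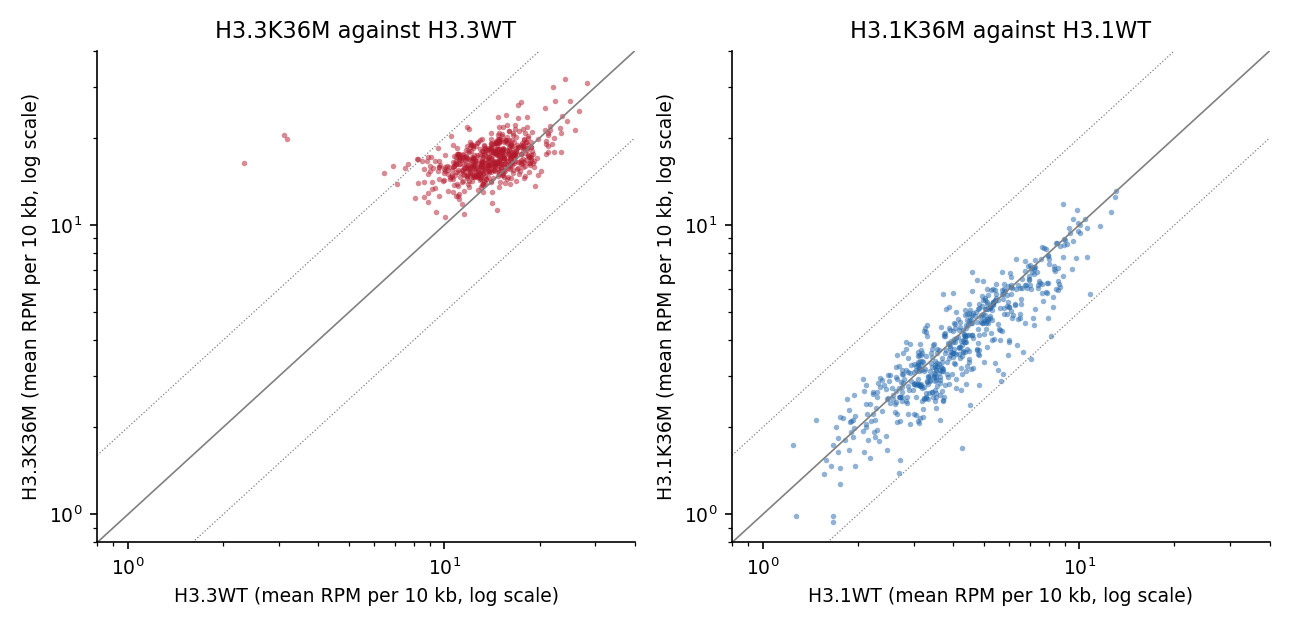
Mean RPM per 10 kb of 559 broad peaks on log scales, H3.3K36M against H3.3WT on the left and H3.1K36M against H3.1WT on the right; solid lines mark equal signal and dotted lines 2-fold. On the left 3 peaks lie far above the 2-fold line, with H3.3WT of 2.32 to 3.19 RPM; on the right most peaks lie near or below the line of equal signal.

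In 3 broad peaks of H3.3K36M the H3.3WT signal was close to its median over all bins, 2.77 RPM. At chr8:53192001-53214600 the bins averaged 16.3 RPM (H3.3K36M), 2.32 RPM (H3.3WT), 3.35 RPM (H3.1K36M) and 4.49 RPM (H3.1WT). H3.3K36M was 7.04-fold higher than H3.3WT there (6.09 to 8.17), and H3.3WT lay below H3.1WT at 0.518-fold (0.433 to 0.617). On chromosome 10 a pair of neighbours 6.2 kb apart did the same. The first, chr10:102981801-103032000, averaged 20.4 RPM (H3.3K36M), 3.12 RPM (H3.3WT), 1.69 RPM (H3.1K36M) and 4.26 RPM (H3.1WT), a 6.54-fold difference between the H3.3 libraries (6.04 to 7.08). Its neighbour chr10:103038201-103062400 averaged 19.9 RPM (H3.3K36M), 3.19 RPM (H3.3WT), 2.39 RPM (H3.1K36M) and 4.53 RPM (H3.1WT), a 6.22-fold difference (5.49 to 7.06). Bins outside the called peak could be raised as well, such as those centred at -48.3 to -28.3 kb from the centre of the peak on chromosome 8, with 9.71 to 12.6 RPM in H3.3K36M and 2.02 to 2.56 RPM in H3.3WT.

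**Figure D5:**
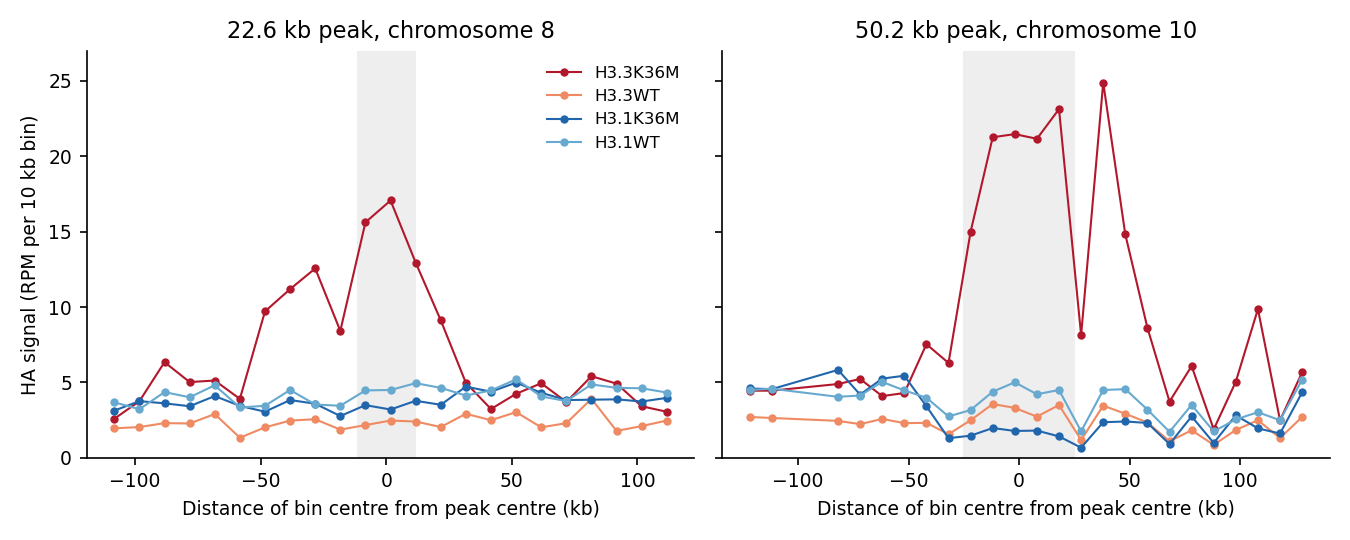
HA signal in RPM per 10 kb bin around chr8:53192001-53214600 (left) and chr10:102981801-103032000 (right), by distance of the bin's centre from the peak's centre in kb, with the peak shaded. Inside the shaded peaks H3.3K36M reaches 17.1 and 23.1 RPM, and H3.3WT is at most 2.47 and 3.57 RPM. The peak of 24.9 RPM to the right of the shading is the neighbour on chromosome 10. Inside the shading on chromosome 10, H3.1K36M is lowest at 1.42 RPM, where H3.1WT is 4.50 RPM. Outside it, at 28.1 kb, all 4 libraries dip, to 8.13 RPM (H3.3K36M), 1.18 RPM (H3.3WT), 0.675 RPM (H3.1K36M) and 1.75 RPM (H3.1WT).

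After these 3, the ratio dropped to 2.36-fold (2.14 to 2.61) at chr8:105215001-105231800, with 15.2 RPM (H3.3K36M) and 6.43 RPM (H3.3WT), and 2.31-fold (2.14 to 2.50) at chr18:39874001-39902000, with 15.9 and 6.90 RPM. In total 9 peaks had an H3.3 ratio of 2 or more. The first 3 were also the lowest of the class in H3.3WT over H3.1WT. They were followed in that order by chr13:33047601-33065400 at 0.923-fold (0.834 to 1.02) and chr2:27651401-27670000 at 1.18-fold (1.08 to 1.29), which had high H3.1WT signals of 9.79 and 11.6 RPM.

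At the other end, 4 of the 5 broad peaks with the lowest H3.3K36M/H3.3WT ratio were on chromosome 15. The lowest, chr15:103072801-103096000, had 13.6 RPM (H3.3K36M), 19.3 RPM (H3.3WT), 9.75 RPM (H3.1K36M) and 10.6 RPM (H3.1WT), so that H3.3K36M stood at 0.706-fold (0.654 to 0.762). Its neighbour chr15:103114801-103141600 stood at 0.749-fold (0.705 to 0.796), chr15:77122001-77138800 at 0.759-fold (0.706 to 0.817) and chr15:11755601-11772200 at 0.768-fold (0.697 to 0.846). The fifth was chr10:90574001-90584800 at 0.772-fold (0.683 to 0.872). Of the 559 peaks, 0 were at least 2-fold lower in H3.3K36M, the line in which they were called.

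The ratio of the H3.3 libraries moved with the chromosome. The median log2 H3.3K36M/H3.3WT ratio in broad-peak bins was -0.03 on chromosome 15, 0.58 on chromosome 13, 0.48 on chromosome 18 and 0.69 on chromosome X (5 bins). The medians of all bins on those chromosomes were -0.20, 0.29, 0.36 and 0.16, and in each of the 20 chromosomes the broad-peak bins lay above their own chromosome, by 0.07 to 0.54. The H3.3WT/H3.1WT ratio was likewise above that of all bins on 20 of 20 chromosomes, by 1.56 to 3.34 on the log2 scale. Its medians ran from 1.25 on chromosome 4 to 2.87 on chromosome 7, where 5 bins were measured.

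The comparison of H3.1K36M with H3.1WT, neither named by the rule, asks how the replication-coupled variant differs between these lines in the same regions. With 1 library per line, the mutation cannot be told apart from other differences between the lines. Broad-peak bins averaged 4.50 RPM (H3.1K36M) and 4.86 RPM (H3.1WT), a pooled 0.927-fold (0.921 to 0.932), and the median log2 ratio was -0.09, against -0.000935 over all bins and -0.01 in the flanks. H3.1K36M was lower in 355 of 559 peaks and higher in 204, and the counting interval lay below 1 in 140 peaks and above 1 in 35. How often such intervals leave out 1 in regions elsewhere was not computed, so these counts have no background share. By bins, H3.1K36M was higher in 36.8% of broad-peak bins, against 49.8% of all bins. The median of broad-peak bins was below that of all bins on 18 of 20 chromosomes. It was lowest on chromosome X at -0.86 (5 bins) and next on chromosome 4 at -0.26.

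Bins at least 2-fold lower in H3.1K36M were few but more frequent here than elsewhere. They numbered 15 of 1131 (1.33%), where 0.064% of all bins were, and 0 were 2-fold higher, where 0.0122% of all bins were. With 1 RPM added in place of 0.1 RPM, 5 bins were 2-fold lower. The 15 bins made up 9.55% of the 157 such bins of the genome. They lay in 10 peaks, and 5 of them were the bins of chr10:102981801-103032000, where H3.1K36M was 0.397-fold of H3.1WT (0.349 to 0.452). Their medians were 21.2 RPM (H3.3K36M), 14.2 RPM (H3.3WT), 2.51 RPM (H3.1K36M) and 6.08 RPM (H3.1WT), and in 14 of the 15 H3.3K36M was above H3.3WT, as it was in 918 of all 1131 broad-peak bins (81.2%) and in 58.4% of all bins. The level of H3.1WT moves with this count. In bins of 7 RPM or more in H3.1WT, 2.65% of broad-peak bins and 1.37% of all bins were 2-fold lower, and at 3 to 4 RPM 1.12% and 0.0157% were. Its part in the count was not tested.

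Across the 559 peaks, the log2 H3.3K36M/H3.3WT ratio and that of H3.1K36M over H3.1WT, which share no library, had r of -0.186 (Spearman's rho -0.113). Without the 3 peaks far above 2-fold higher in H3.3K36M, r was -0.092 and rho -0.100, so those peaks moved r and hardly the rank correlation. In the 140 peaks with the highest H3.3 ratio (median 1.52-fold), the median H3.1 ratio was 0.913-fold and 96 were below 1, and in the 140 with the lowest (0.979-fold) it was 0.972-fold and 80 were below 1.

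Few broad peaks carried a peak of H3.1K36M, whose list held only 73 peaks, so the share could not be large. Of the 569, 9 (1.58%) shared at least 1 base with an H3.1K36M peak. Seen from the other list, 10 of the 73 H3.1K36M peaks (13.7%) touched a broad peak, where broad-peak bins were 0.461% of all bins. Among the 7806 shorter peaks 6 (0.0769%) did so, though a longer peak has more room for an overlap. The longest overlap, 11400 bp, was in chr4:62156001-62185000, which held 21.4 RPM (H3.3K36M), 26.0 RPM (H3.3WT), 13.1 RPM (H3.1K36M) and 13.1 RPM (H3.1WT). The others were chr15:103072801-103096000, chr11:118152001-118242200, chr1:33953401-33969400, chr11:117784001-117883600, chr11:118261201-118295200, chr9:102654201-102666600, chr15:101157401-101180800 and chr15:99371601-99397600. In these 8, H3.1K36M averaged between 6.05 and 12.5 RPM and H3.1WT between 6.05 and 13.0 RPM. H3.1WT was about as high as H3.1K36M in them, with folds between 0.883 and 1.13.

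Bins as rich in H3.3WT as a broad peak also existed outside the peak list. Of the 1965 bins at or above 14.1 RPM in H3.3WT, the median of broad-peak bins, 567 were broad-peak bins and 914 (46.5%) touched no H3.3K36M peak of any length. Of all bins used, 99.3% lay outside broad peaks. By distance class, 2.37% (5000 kb and farther) to 21.9% (0 to 10 kb) of those touched a shorter peak. Bins without a peak were thus a smaller share of the H3.3WT-rich bins than of all bins. These 914 bins had medians of 13.4 RPM (H3.3K36M), 15.4 RPM (H3.3WT), 4.80 RPM (H3.1K36M) and 5.26 RPM (H3.1WT). They were chosen for high H3.3WT and for the absence of an H3.3K36M peak, which favours H3.3WT above H3.3K36M. The order of these medians therefore cannot show a preference for H3.3WT. Likewise, the count of 567 follows from the level, which is the median of broad-peak bins.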

How the data were processed

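HA ChIP-seq of 4 C3H10T1/2 lines gave 1 HA library each, and their inputs were not used here. Groups were read from each sample's genotype and description, since the titles of both H3.3 samples begin with an H3.1 name. The protocol names a Cbx2 antibody and the descriptions an HA antibody, and the descriptions were followed. The submitters' processing notes name Bowtie 1.0.0 and mm9; peak caller, its control and duplicate handling are not given in the sources used here.

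Deposited by the authors were RPM per genomic bin and peak positions without scores. In each RPM column 100% of values were whole multiples of 1 step within 0.01 of a read (plus rounding), so reads were recovered for the intervals. Peak positions lie on a 200 bp grid and are printed 1-based. Of 251622 rows on chromosomes 1 to 19 and X, 247593 were 10 kb wide, and those averaging 0.5 RPM or more in the 4 libraries were used (245206 bins); no broad-peak bin was lost. Log2 ratios have 0.1 RPM added to both libraries, which understates low bins. The 2-fold level is a rule of size, not a test. The alternatives are listed with their effect in the closing section.

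Members, lists and comparisons were chosen with earlier results of these data known. By rule, the named regions are the 10 longest peaks, the 5 highest and 5 lowest in H3.3K36M/H3.3WT and in H3.3WT/H3.1WT, the 5 highest in H3.3WT, those overlapping an H3.1K36M peak, the 3 richest clusters and the 2 most isolated peaks. The 14.1 RPM level was chosen after values were seen. No annotation of mm9 was used here, so regions are not placed in genes, exons or introns. Ratios and intervals were tested on simulated data. Computation used Python 3.11.15 with the packages numpy 2.4.6, pandas 2.3.3, scipy 1.17.1 and, for plots, matplotlib 3.10.9.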

Additional observations from a re-analysis of the deposited data

Results flagged for a closer look

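The difference between K36M and WT ran in opposite directions for the 2 histone variants in broad-peak bins. The median log2 ratio was 0.26 for H3.3K36M over H3.3WT and -0.091 for H3.1K36M over H3.1WT. With 1 library per line the difference between them was not tested, and the peaks were called in the H3.3K36M line, which favours a positive value for H3.3.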

How the results depend on the processing

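Each ratio kept its direction under every alternative run. A ratio is listed here when it left its counting interval, which is narrow at this depth, and a count when it changed by over 1.5 times. The number of broad peaks was 179 at a threshold of 20 kb and 947 with peaks up to 10 kb apart joined; a threshold of 8 kb (816), joining up to 2 kb (569) or 5 kb (705) and leaving out chromosome X (566) moved it less. The median log2 H3.3K36M/H3.3WT ratio was 0.24 with 1 RPM added, 0.16 centred on all bins, 0.28 in bins wholly inside, 0.23 in bins with any overlap and 0.24 in peaks of 20 kb up. That of H3.3WT over H3.1WT was 1.68 and 1.48 with 0.01 and 1 RPM added, 2.09 centred, 1.74 wholly inside, 1.46 with any overlap and 1.59 from 20 kb. That of H3.3K36M over H3.1K36M was, in the same order, 2.09, 1.85, 2.36, 2.24, 1.81 and 1.97. That of H3.1K36M over H3.1WT was -0.074 with 1 RPM added, -0.10 wholly inside, -0.072 with any overlap and -0.11 from 20 kb. The cause of these shifts was not tested.

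Counts of bins at least 2-fold apart fell where fewer bins enter. With the 582 bins wholly inside they were 13 (H3.3K36M over H3.3WT, higher), 493 (H3.3WT over H3.1WT, higher), 0 (the same, lower) and 542 (H3.3K36M over H3.1K36M, higher), and with the 612 bins of peaks from 20 kb they were 481 and 536 for the higher bins of the last 2 comparisons. Bins lower in H3.3WT than in H3.1WT were 0 with 1 RPM added, 0 after centring and 2 with any overlap. Bins lower in H3.1K36M than in H3.1WT were 5 with 1 RPM added.

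The ratio of inside to flank in H3.3K36M was 2.26 in bins wholly inside, 1.85 with any overlap, 1.87 from 20 kb, 2.79 against flanks at 50 to 200 kb, 2.20 against flanks without any peak and 2.13 as a ratio of medians. In H3.3WT these were 1.89, 1.59, 1.62, 2.26, 1.82 and 1.76. In H3.1K36M they were 0.818, 0.842, 0.802, 0.908 and, as medians, 0.775, and in H3.1WT 0.881, 0.881, 0.841, 0.977 and 0.832. No filter, wider rows and autosomes alone stayed within the intervals. The joining at 5 and 10 kb, the wider rows and the ratio of medians were added after seeing the data. No paired analysis was possible because each group has 1 library. Depth limits H3.1 most, with a median of 153 reads per broad-peak bin in H3.1WT.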

Other observations

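Rows of the table wider than 10 kb were left out, and 23 of them, each 20 kb wide, lay at least 50% inside a broad peak. Per 10 kb they held medians of 16.2 RPM (H3.3K36M), 14.5 RPM (H3.3WT), 3.46 RPM (H3.1K36M) and 3.72 RPM (H3.1WT). The 10 broad peaks without a 10 kb bin touched such wider rows.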
